A study of Mus musculus with 3 samples.

Results

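Laminins, nidogens and perlecan build basement membranes together with type IV collagen. The 10 genes described here encode the laminin α chains Lama2, Lama4 and Lama5, the β chains Lamb1 and Lamb2, the γ chains Lamc1 and Lamc3, the nidogens Nid1 and Nid2, and perlecan (Hspg2). They were chosen by name, not by measured value, from the 31730 genes of the deposited single-cell count tables, and all 10 had UMIs. The study sorted mouse lung mesenchyme on postnatal day 7, from pups of the genotype Fgf18CreERT2/+; ROSATDTomato/+; PdgfrαEGFP/+ that had received tamoxifen on postnatal days 2 to 5. All groups share these alleles and this treatment: the Cre is made from the Fgf18 locus, so tdTomato (tdT) marks cells in which that locus was active around the tamoxifen days and their progeny, and GFP follows the Pdgfra locus. The 3 gates gave a 10x Genomics 3′ library each, with 1511 cells from the GFP-high tdT-high gate, 3347 from the GFP-high tdT-negative gate and 1284 from the GFP-low tdT-negative gate. A further sorted population, tdT-positive and GFP-negative, was not analysed here. The number of pups per library is not given. Each library held cells with Xist but no Y-linked UMIs and cells with Y-linked but no Xist UMIs, so each came from pups of both sexes. These are called Xist-only and Y-only cells below.

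A laminin is a trimer of an α, a β and a γ chain that is assembled inside the cell, secreted, and polymerised at the cell surface. The α chain carries the domains that bind integrins and dystroglycan, nidogens link the laminin γ chain to the type IV collagen network, and perlecan, a heparan sulfate proteoglycan, joins the same sheet and holds growth factors. In the lung, such sheets lie under the airway and alveolar epithelium, around vessels and around smooth muscle cells, and mesenchymal cells make a share of their components.

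Levels are given as UMIs of a gene in each 1000000 UMIs (CPM), summed over the cells of 1 deposited cell type in 1 gate, with exact Poisson 95% intervals. Each gate has 1 library, so no test and no p-value is possible, and the intervals cover counting error only, not the spread between animals or libraries. A gene was called higher or lower when the ratio of (CPM + 1) was at least 1.5-fold, among genes that averaged at least 10 CPM over the groups compared. Levels are compared for 1 gene across groups and not between genes. Where the share of 1 chain in the UMIs of several chains is given, that share is compared across groups. The authors' deposited cell type names (AdvFB, MyoFB-Ter, MyoFB-Int, MyoFB-IMR, MatFB-Type 1, MatFB-Type 2, MatFB-Im,Cuff and the DivFB names) are used as written. In 14 combinations of type and gate there were at least 50 cells, and the order of levels below covers these.

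The libraries held 34506226 UMIs in the GFP-high tdT-high gate, 68692834 in the GFP-high tdT-negative gate and 26586489 in the GFP-low tdT-negative gate. Median UMIs per cell were between 19629 and 22401, and median mitochondrial shares were between 2.65% and 3.46%. The summed level of the 12 AdvFB markers was 17352 CPM in AdvFB cells of the GFP-high tdT-negative gate, against 408 to 487 CPM in its 3 MyoFB types, and that of the 12 MyoFB markers was 16390 to 19097 CPM in the MyoFB types of both GFP-high gates. AdvFB cells of the GFP-low tdT-negative gate, MatFB-Im,Cuff cells and MyoFB-Ter cells differed in other marker sums between gates, as given with their results. Summed endothelial, epithelial and immune markers were each at most 166 CPM in all 14 groups. At most 3 cell barcodes were shared by any pair of libraries.

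On GRCm38 with GENCODE M21 annotation, the genes for the α and β chains lie at separate loci, Lama2 at chr10:26980036-27619758 (minus strand), Lama4 at chr10:38965515-39110188 (plus strand), Lama5 at chr2:180176373-180225859 (minus strand), Lamb1 at chr12:31265234-31329644 (plus strand) and Lamb2 at chr9:108479736-108490530 (plus strand). The others are Lamc1 at chr1:153218922-153332786 (minus strand), Lamc3 at chr2:31887291-31946539 (plus strand), Nid1 at chr13:13437551-13512269 (plus strand), Nid2 at chr14:19751265-19811787 (plus strand) and Hspg2 at chr4:137468769-137570630 (plus strand). Lama2 and Lamc1 each contain a counted gene on the same strand, Gm36962 in Lama2 and Gm38009 in Lamc1, so reads in those stretches cannot be told apart.

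Among the laminin α chains, Lama2, the chain of the laminin of muscle and nerve basement membranes, was highest in AdvFB and in one group of MatFB-Im,Cuff cells. Its level was 2583 CPM in AdvFB cells of the GFP-high tdT-negative gate and 2060 CPM in AdvFB cells of the GFP-low tdT-negative gate, with a median of 343 CPM over the 14 groups and a lowest value of 200 CPM in DivFB-G2M cells. MatFB-Im,Cuff cells of the GFP-high tdT-negative gate had 2055 CPM, so these 3 groups stood above every other. Lama2 took 89.8% of the α-chain UMIs (Lama2, Lama4 and Lama5 together) in AdvFB cells of the GFP-high tdT-negative gate, against 41.9% in MyoFB-Int cells of that gate.

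Lama4, the α chain known best from vessel walls, was the most even of the α chains. It was lowest at 187 CPM in AdvFB cells of the GFP-low tdT-negative gate, had a median of 332 CPM and was highest at 530 CPM in MatFB-Im,Cuff cells of the GFP-high tdT-negative gate, a 2.83-fold range. Lama5, whose loss in mice disturbs lobe and alveolus formation, had its low end in AdvFB cells of the GFP-high tdT-negative gate. Its level there was 3.41 CPM (95% interval 2.26 to 4.92), against 51.6 CPM in AdvFB cells of the GFP-low tdT-negative gate. The median was 75.9 CPM and the high was 106 CPM in MyoFB-IMR cells of the GFP-high tdT-high gate. Of the 13 neighbouring pairs in the order of Lama5 levels, 11 had overlapping intervals. This order is therefore loose between most neighbours, though overlap does not show that their levels were equal.

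The β chains tended to run in opposite directions across the groups, though not in all of them. Lamb1, the widely made β chain, was lowest at 40.4 CPM in MyoFB-Ter cells of the GFP-high tdT-high gate and had a median of 226 CPM. It was highest at 421 CPM in MatFB-Im,Cuff cells of the GFP-high tdT-negative gate. MatFB-Type 1 cells of the GFP-low tdT-negative gate, at 416 CPM, had an overlapping interval, and MatFB-Type 2 cells of that gate had 340 CPM. Lamb2, the β chain of the neuromuscular junction and the kidney filter, was highest at 100.2 CPM in MyoFB-Ter cells of the GFP-high tdT-high gate. It had a median of 65.2 CPM and was lowest at 32.2 CPM in MatFB-Type 1 cells. Over the 14 groups the Pearson correlation of their log2 levels was -0.68, a description over groups that share 3 libraries. Some groups did not follow it. MatFB-Im,Cuff cells of the GFP-high tdT-negative gate, highest in Lamb1, had 71.0 CPM of Lamb2, above its median. DivFB-G2M cells of that gate were below the median for both, at 204 CPM of Lamb1 and 62.5 CPM of Lamb2. Of the 13 neighbouring pairs in the order of Lamb2, 12 had overlapping intervals, against 7 for Lamb1.

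The promoters of Lamb1 and Hspg2 are shown because these genes differed in opposite directions in MyoFB-Ter cells, as described below, and that of Lamb2 because it is the other β chain; Lamb2 itself was called in no MyoFB-Ter comparison. They are RefSeq sequences of the build GRCm38.p6, plus strand, 250 bases before to 50 after the gene's RefSeq start. Lamb1 is at chr12:31265043-31265342, Lamb2 at chr9:108479612-108479911 and Hspg2 at chr4:137468553-137468852. Capitals mark matches to GGGCGG (the GC box, or CCGCCC on the other strand), CCAAT (or ATTGG) and TATAAA (or TTTATA).
Lamb1: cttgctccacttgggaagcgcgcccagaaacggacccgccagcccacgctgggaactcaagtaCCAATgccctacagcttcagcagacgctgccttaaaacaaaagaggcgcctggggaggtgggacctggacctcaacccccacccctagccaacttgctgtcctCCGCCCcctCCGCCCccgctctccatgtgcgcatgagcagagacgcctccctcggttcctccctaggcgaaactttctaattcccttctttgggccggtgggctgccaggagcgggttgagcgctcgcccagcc
Lamb2: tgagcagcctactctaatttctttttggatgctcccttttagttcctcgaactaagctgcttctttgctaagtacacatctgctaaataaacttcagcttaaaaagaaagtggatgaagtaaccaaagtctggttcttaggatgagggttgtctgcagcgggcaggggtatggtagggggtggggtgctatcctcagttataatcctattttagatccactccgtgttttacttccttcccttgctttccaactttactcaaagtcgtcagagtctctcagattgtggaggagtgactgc
Hspg2: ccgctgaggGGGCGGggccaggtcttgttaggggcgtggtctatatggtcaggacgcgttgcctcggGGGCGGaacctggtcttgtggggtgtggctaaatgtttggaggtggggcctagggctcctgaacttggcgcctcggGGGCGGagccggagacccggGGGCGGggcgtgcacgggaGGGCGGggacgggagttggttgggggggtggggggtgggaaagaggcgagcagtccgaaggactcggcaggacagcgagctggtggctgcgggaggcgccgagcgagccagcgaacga
Lamb1 holds 2 GC boxes and 1 CCAAT in 63.7% GC, Hspg2 holds 5 GC boxes in 70.3% GC, and Lamb2 holds none of the 3 motifs in 44.0% GC. Among 32851 mouse promoters of this length, 35.7% hold a GC box, 37.4% a CCAAT and 13.6% a TATAAA, and the median GC content is 52.7%. A match here is a description of letters, and a motif that is missing says only that those letters are not in this window. Of the 10 genes, 6 had an entry in the promoter table.

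The γ chains differed in how widely they were found. Lamc1, the γ chain of most laminins, varied least of the 10 genes by ratio (2.20-fold), with 205 CPM in AdvFB cells of the GFP-low tdT-negative gate, a median of 341 CPM and 452 CPM in MatFB-Type 1 cells. Lamc3, a γ chain of few tissues, reached 229 CPM (95% interval 209 to 250) in MatFB-Im,Cuff cells of the GFP-high tdT-negative gate. The median for Lamc3 was 10.1 CPM, and the lowest value was 0.153 CPM in MatFB-Type 2 cells. With each cell thinned to 5000 UMIs, 60.0% of the MatFB-Im,Cuff cells of the GFP-high tdT-negative gate had a Lamc3 UMI (75.5% unthinned), against 0.305% of AdvFB cells of the same gate (1.52% unthinned). Median depths were 17598.5 UMIs per cell in the MatFB-Im,Cuff cells and 24677.5 in the AdvFB cells.

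Both nidogens were highest in AdvFB cells of the GFP-high tdT-negative gate and lowest in MyoFB-Ter cells of the GFP-high tdT-high gate. For Nid1 the other gate differed. AdvFB cells of the GFP-low tdT-negative gate, at 369 CPM, stood below MatFB-Im,Cuff cells of both gates (477 and 395 CPM). MyoFB-Ter cells of the GFP-high tdT-negative gate, at 213 CPM, stood above MyoFB-IMR cells of that gate (195 CPM). Nid1, the main linker between laminin and type IV collagen, had 596 CPM in AdvFB cells of the GFP-high tdT-negative gate, a median of 220 CPM and 150 CPM in MyoFB-Ter cells of the GFP-high tdT-high gate. Nid2, its paralogue, had 43.4 CPM, a median of 22.9 CPM and 3.62 CPM in the same groups, a 12.0-fold range against 3.98-fold for Nid1. For Nid2, 11 of the 13 neighbouring pairs had overlapping intervals.

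Perlecan (Hspg2) was highest in AdvFB as well, but its low end lay elsewhere than that of the nidogens. It had 182 CPM in AdvFB cells of the GFP-high tdT-negative gate, 211 CPM in AdvFB cells of the GFP-low tdT-negative gate, a median of 53.2 CPM and 23.0 CPM in DivFB-G2M cells of the GFP-high tdT-negative gate. MyoFB-IMR cells of that gate, at 23.1 CPM, did not differ from these beyond counting error. Across the 14 groups its log2 level had a Pearson correlation of 0.68 with that of Nid1 and of -0.70 with that of Lama5.

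**Figure D1:**
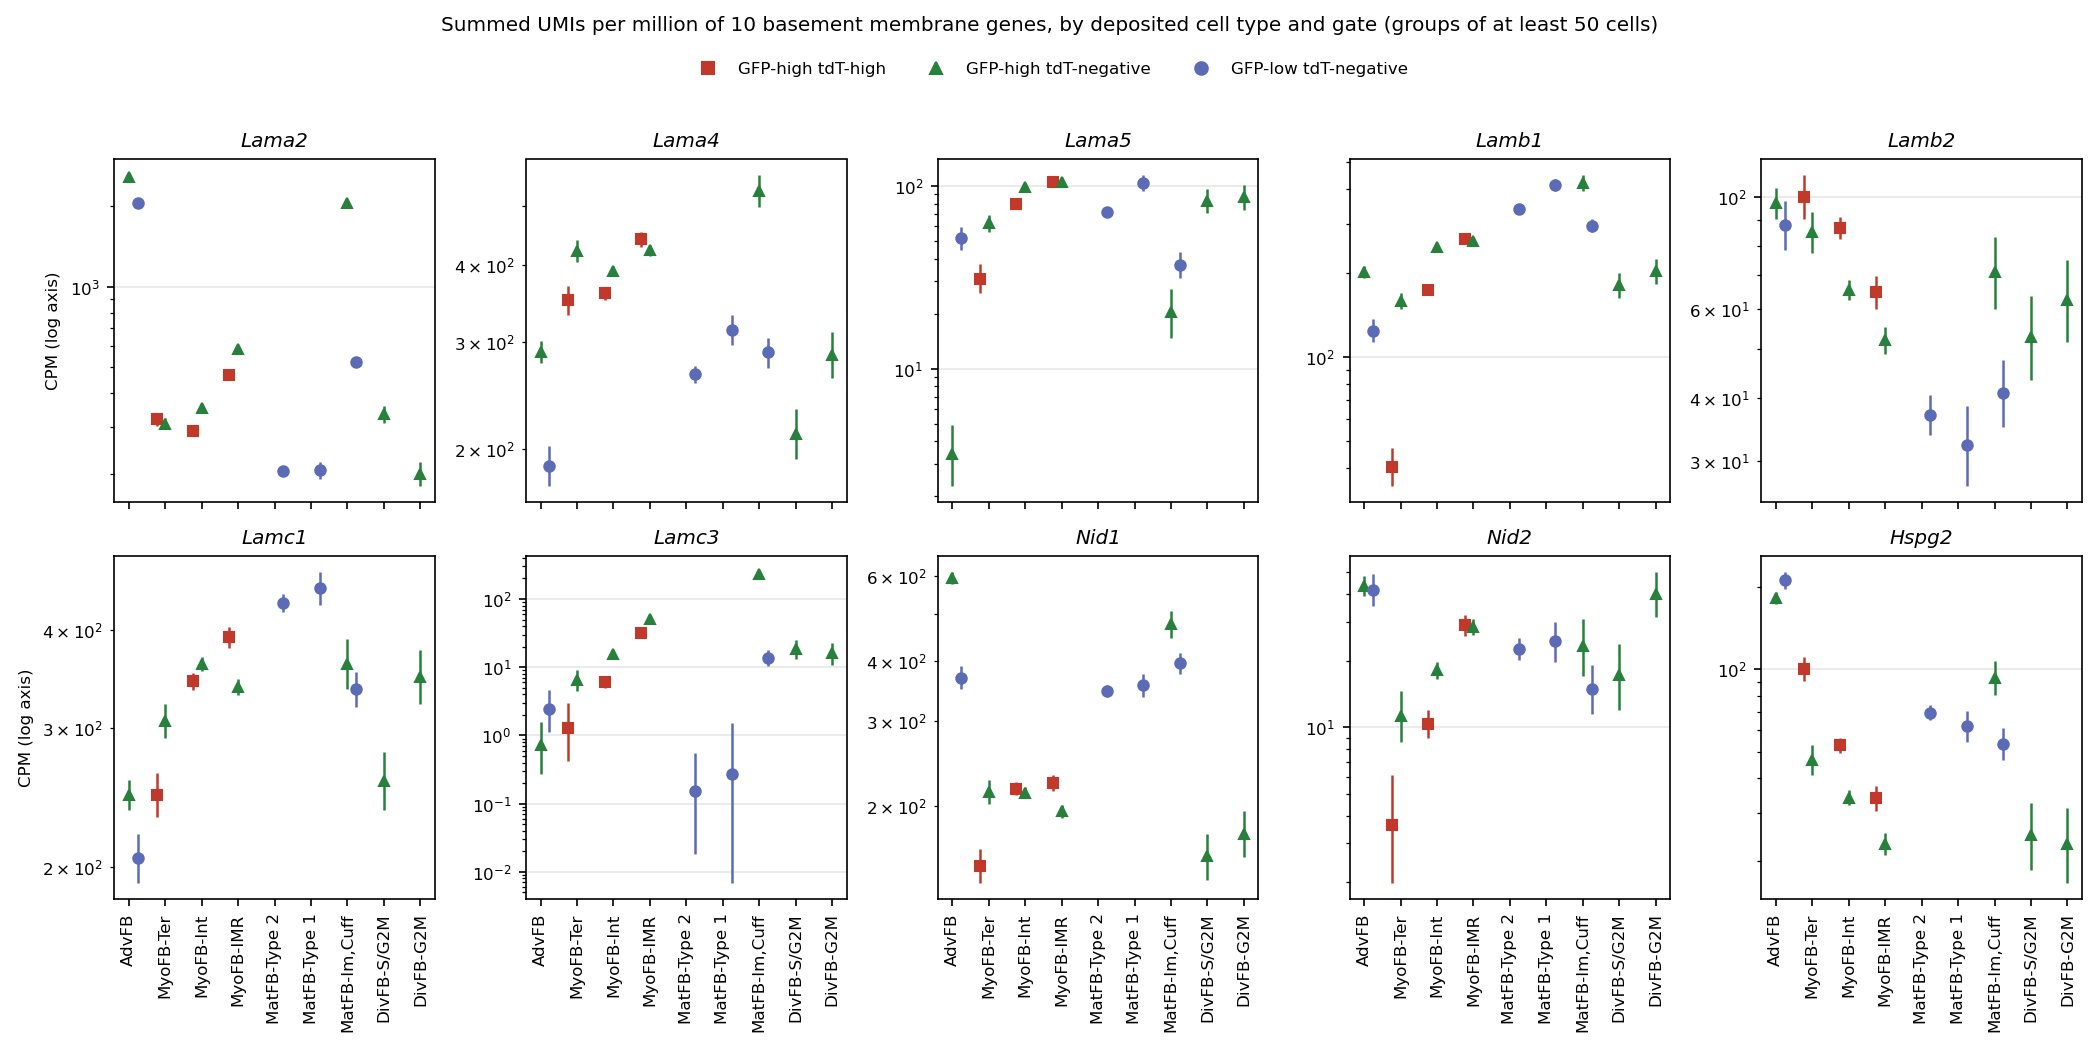
Level of each of the 10 genes in CPM (log axis) in the 14 combinations of deposited cell type and gate with at least 50 cells, with 95% Poisson intervals; red squares are GFP-high tdT-high, green triangles GFP-high tdT-negative and blue circles GFP-low tdT-negative. In AdvFB of the GFP-high tdT-negative gate, Lama2, Nid1 and Hspg2 are high and Lama5 is at 3.41 CPM. In AdvFB of the GFP-low tdT-negative gate, Lama5 is at 51.6 CPM and Nid1 at 369 CPM. Lamc3 stands at 229 CPM in MatFB-Im,Cuff of the GFP-high tdT-negative gate.

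Within MyoFB, the 3 types were compared in each GFP-high gate. In both gates Lama2, Lamc3 and Nid2 were lower in MyoFB-Int than in MyoFB-IMR, and Lama5 and Lamb1 were lower in MyoFB-Ter than in MyoFB-Int. Hspg2 was higher in MyoFB-Ter than in MyoFB-Int in both gates. It was called only in the GFP-high tdT-high gate, as its log2 ratio in the GFP-high tdT-negative gate was 0.44. Several of these calls depended on the scaling or on the cells kept, as given below. Lamb1 had 40.4, 174 and 265 CPM in MyoFB-Ter, MyoFB-Int and MyoFB-IMR of the GFP-high tdT-high gate, and 159, 249 and 260 CPM in the same types of the GFP-high tdT-negative gate. Hspg2 had 100, 52.8 and 33.9 CPM in these types of the GFP-high tdT-high gate, and 46.7, 34.1 and 23.1 CPM in the GFP-high tdT-negative gate. MyoFB-Ter thus had the lowest Lamb1 and the highest Hspg2 of the 3 types in each gate. Lamb1 in MyoFB-Int and MyoFB-IMR of the GFP-high tdT-negative gate lay close, with overlapping intervals.

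For MyoFB-Int over MyoFB-IMR in the GFP-high tdT-high gate, 5 of the 10 genes were called, where 11.6% of all genes measured were called (median log2 ratio of the members -0.35, of all genes -0.05). Hspg2 was 1.56-fold higher (95% interval 1.38 to 1.76), whereas Lama2 was 1.62-fold, Lamb1 1.52-fold, Nid2 2.77-fold and Lamc3 5.23-fold lower in MyoFB-Int. The log2 ratios of Lama2 and Lamb1 were short of the limit with TMM (-0.57 and -0.48) and DESeq2 (-0.54 and -0.45) scaling. In the GFP-high tdT-negative gate 3 of 10 were called, beside 7.81% of all genes (median log2 ratio of the members -0.08, of all genes -0.03). Lama2 was 1.67-fold (1.62 to 1.71), Nid2 1.57-fold (1.39 to 1.77) and Lamc3 3.26-fold (2.91 to 3.66) lower in MyoFB-Int than in MyoFB-IMR. Lamc3 was called lower in MyoFB-Int in both libraries under each scaling. The Nid2 call of the GFP-high tdT-negative gate was lost with TMM (-0.53) and DESeq2 (-0.51) scaling, with a pseudocount of 5 (-0.53), in cells with at most 5% mitochondrial UMIs (-0.58) and in Y-only cells (-0.58), as log2 ratios. In the GFP-high tdT-high gate, Hspg2 was short of the limit with a pseudocount of 5 (0.57) and in Xist-only cells (0.50), and Lama2 in Xist-only cells (-0.38). In the GFP-high tdT-negative gate Hspg2 passed it with TMM (0.63) and DESeq2 (0.65) scaling and in Xist-only cells (0.74).

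For MyoFB-Ter over MyoFB-Int in the GFP-high tdT-high gate, 3 of the 8 genes measured were called, beside 11.8% of all genes (median log2 ratio of the members -0.26, of all genes -0.03). Hspg2 was 1.90-fold higher (1.68 to 2.14), Lamb1 was 4.30-fold lower (3.66 to 5.08) and Lama5 was 2.57-fold lower (2.13 to 3.12) in MyoFB-Ter. Without a cluster of MyoFB-Ter cells described below, which left 47 cells, the log2 ratio of Hspg2 was 0.48, short of the limit. That of Lamb1 was -1.37. Without MyoFB-Ter cells that lacked a Pdgfra UMI, which left 46 cells, the log2 ratio of Lamb1 was -1.45. In the GFP-high tdT-negative gate 4 of 10 were called, beside 4.83% of all genes (median log2 ratio of the members -0.22, of all genes 0.00). Lama5 was 1.58-fold, Lamb1 1.57-fold, Nid2 1.60-fold and Lamc3 2.43-fold lower in MyoFB-Ter, and none was called higher. These calls lay near the limit: Lama5 and Lamb1 lost theirs without MyoFB-Ter cells that lacked a Pdgfra UMI (log2 ratios -0.53 and -0.56), Lama5 also on thinned cells (-0.55) and in Xist-only cells (-0.55), and Lamb1 in Y-only cells (-0.54). Nid2 lost its call on thinned cells (-0.56), with a pseudocount of 5 (-0.50) and in Y-only cells (-0.55), while Hspg2 passed the limit on thinned cells (0.62). In the GFP-high tdT-high gate Nid1 passed it, lower in MyoFB-Ter, on thinned cells (-0.61) and in Xist-only cells (-0.77).

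The β-chain UMIs differed in makeup between the types. Lamb2 took 71.3% (exact binomial 95% interval 67.3 to 75.0) of the Lamb1 and Lamb2 UMIs in MyoFB-Ter of the GFP-high tdT-high gate, 33.4% in MyoFB-Int and 19.7% in MyoFB-IMR. In the GFP-high tdT-negative gate these shares were 35.0% (32.4 to 37.6), 20.9% and 16.7%. The share was higher in MyoFB-Ter of each gate than in the other MyoFB types, and it was lowest of the 14 groups in MatFB-Type 1, at 7.19%. Thinned to 5000 UMIs, 5.26% of MyoFB-Ter cells of the GFP-high tdT-high gate had UMIs of all of Lama2, Lamb1 and Lamc1 (37.9% unthinned), against 25.1% of MyoFB-Int cells (76.0% unthinned) and 40.9% of MyoFB-IMR cells (84.6% unthinned). For Lama2, Lamb2 and Lamc1 the thinned shares were 15.8%, 15.9% and 16.5% in the same types.

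**Figure D2:**
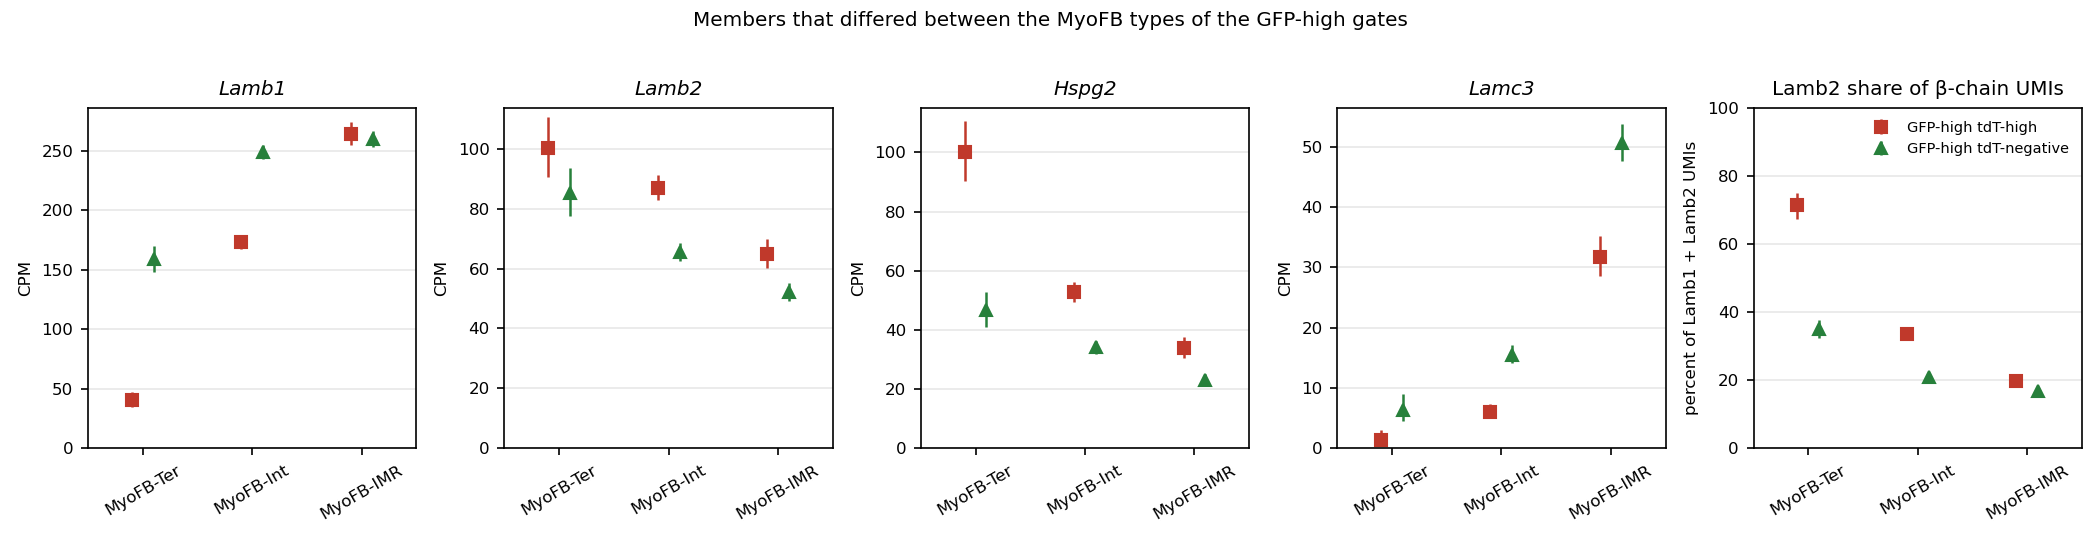
CPM of Lamb1, Lamb2, Hspg2 and Lamc3 (95% Poisson intervals), and the percent of Lamb1 plus Lamb2 UMIs that were Lamb2 (95% exact binomial intervals), in MyoFB-Ter, MyoFB-Int and MyoFB-IMR of the GFP-high tdT-high (red) and GFP-high tdT-negative (green) gates, on axes that start at 0. Lamb1 is lowest and the Lamb2 share highest in MyoFB-Ter, where the share is 71.3% in the GFP-high tdT-high gate and 35.0% in the GFP-high tdT-negative gate.

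The lineage mark was compared within the GFP-high gates, which asks how Fgf18-lineage cells differ from unmarked ones. Over all cells, 2 of the 10 genes were called, beside 6.86% of all genes (median log2 ratio of the members -0.15, of all genes -0.05), both lower in the GFP-high tdT-high gate. Lama2 had 355 CPM in the GFP-high tdT-high gate and 739 CPM in the GFP-high tdT-negative gate, 2.08-fold lower (2.04 to 2.13), and Lamc3 had 14.7 and 30.1 CPM, 2.04-fold lower (1.85 to 2.26). The makeup of the gates moves with these differences: the GFP-high tdT-high gate held 4 AdvFB cells and 1 MatFB-Im,Cuff cell, against 328 and 110 in the GFP-high tdT-negative gate, and Lama2 was high in both of these types and Lamc3 in MatFB-Im,Cuff. Its part in the differences over all cells was not tested. Within MyoFB-IMR, Lama2 was 1.25-fold lower in the GFP-high tdT-high gate, under the 1.5-fold limit.

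Within MyoFB-IMR, 1 of the 10 genes was called, beside 2.87% of all genes (median log2 ratio of the members 0.04, of all genes -0.05). Lamc3 had 31.8 CPM in the GFP-high tdT-high gate and 50.7 CPM in the GFP-high tdT-negative gate, 1.59-fold lower (1.41 to 1.81), and this call was lost on cells thinned to equal depth or averaged with equal weight. Within MyoFB-Int, 3 of 10 were called, beside 5.16% of all genes (median log2 ratio of the members -0.20, of all genes -0.07). Hspg2 had 52.8 CPM in the GFP-high tdT-high gate and 34.1 CPM in the GFP-high tdT-negative gate, 1.55-fold higher (1.41 to 1.70). Lamc3 was 2.56-fold (2.07 to 3.18) and Nid2 1.74-fold (1.47 to 2.07) lower in the GFP-high tdT-high gate. In Xist-only cells Nid2 alone was called: Hspg2 was short of the limit (log2 ratio 0.44), and Lamc3, at a log2 ratio of -0.62, averaged under 10 CPM. With a pseudocount of 5, Nid2 (-0.58) and Hspg2 (0.57) were short of the limit.

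Within MyoFB-Ter, 3 of the 8 genes measured were called, beside 16.7% of all genes (median log2 ratio of the members -0.29, of all genes -0.10). Lamb1 had 40.4 CPM (34.3 to 47.2) in the GFP-high tdT-high gate and 159 CPM (148 to 170) in the GFP-high tdT-negative gate, 3.93-fold lower (3.31 to 4.69). Lama5 had 31.1 and 62.3 CPM in these gates, 2.01-fold lower (1.62 to 2.49), and Hspg2 had 100 and 46.7 CPM, 2.15-fold higher (1.82 to 2.53). Nid2, at 3.62 CPM in the GFP-high tdT-high gate and 11.3 CPM in the GFP-high tdT-negative gate, and Lamc3, at 1.29 and 6.40 CPM, averaged under 10 CPM and were not called. Hspg2 was also higher in the GFP-high tdT-high gate in MyoFB-IMR, by 1.47-fold (1.28 to 1.69), under the limit over all cells and past it in Xist-only cells (log2 ratio 0.68). Nid1 in MyoFB-Ter passed the limit, lower in the GFP-high tdT-high gate, with per-cell means (-0.60), thinned cells (-0.60) and Xist-only cells (-0.60).

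The MyoFB-Ter cells of the gates differed in other ways that move with these values, and the part of these in the differences was not tested. Cells with a Pdgfra UMI numbered 46 of 190 MyoFB-Ter cells in the GFP-high tdT-high gate and 251 of 303 in the GFP-high tdT-negative gate. The summed pericyte markers stood at 1522 CPM in MyoFB-Ter of the GFP-high tdT-high gate and 387 CPM in that of the GFP-high tdT-negative gate, while smooth muscle markers stood at 5412 and 5316 CPM. A cluster found without the 10 genes, a grouping added after the data were seen, held 143 of the 190 MyoFB-Ter cells of the GFP-high tdT-high gate and 8 of the 303 of the GFP-high tdT-negative gate. It also held all 23 MyoFB-Ter cells of the GFP-low tdT-negative gate, where Lamb1 was 18.8 CPM, Lamb2 119 CPM and Hspg2 295 CPM. Outside this cluster, MyoFB-Ter cells of the GFP-high tdT-high gate had 66.4 CPM of Lamb1 and 74.1 CPM of Hspg2, and the log2 ratio of Lamb1 to the GFP-high tdT-negative gate was -1.27, against -1.95 with the cluster; there 5 genes were called, with Lama4 and Nid1 lower as well. Lamb1 was lower in the GFP-high tdT-high gate with and without the cluster, and by less without it. The MyoFB-Ter cells outside the cluster numbered 47 in that gate, under the minimum number of cells used for the order of levels. The part of the cluster in the Lamb1 difference was not tested.

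**Figure D3:**
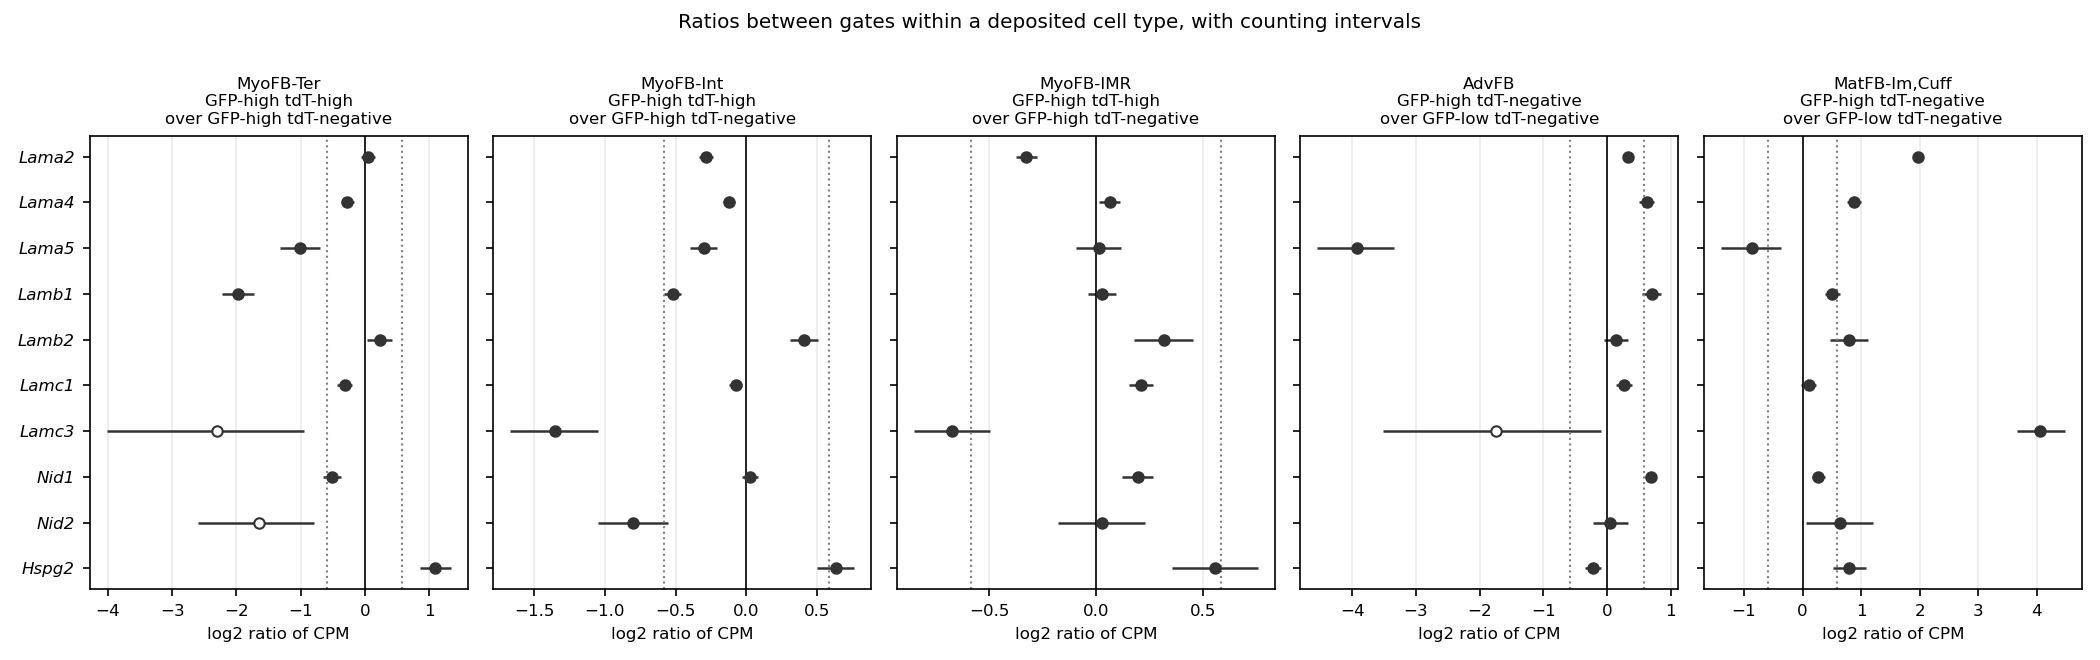
Log2 ratio of CPM between gates for the 10 genes within 5 deposited types: GFP-high tdT-high over GFP-high tdT-negative in MyoFB-Ter, MyoFB-Int and MyoFB-IMR, and GFP-high tdT-negative against GFP-low tdT-negative in AdvFB and MatFB-Im,Cuff, with 95% counting intervals; dotted lines mark 1.5-fold and open circles a mean under 10 CPM. Among filled points, Lamb1 is lowest in MyoFB-Ter (3.93-fold), Lama5 in AdvFB (15.1-fold), and Lamc3 is highest in MatFB-Im,Cuff (16.6-fold).

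AdvFB cells were set against MyoFB-Int cells in the GFP-high tdT-negative gate, where 5 of the 9 genes measured were called, beside 38.0% of all genes (median log2 ratio of the members 0.56, of all genes -0.24). Lama2 was 7.32-fold (7.15 to 7.50), Hspg2 5.34-fold (4.91 to 5.80), Nid1 2.80-fold (2.69 to 2.91) and Nid2 2.40-fold (2.09 to 2.76) higher in AdvFB, and Lama5 was 28.8-fold lower (19.9 to 43.5). Lamb1, Lamb2, Lamc1 and Lama4 stayed within 1.5-fold, and Lamc3 averaged under 10 CPM. Past the limit under an alternative were Lamb2 with TMM (log2 ratio 0.75) and DESeq2 (0.76) scaling and in Y-only cells (0.60), Lamb1 (-0.65) and Lamc1 (-1.16) in Xist-only cells, and Lama4 in Y-only cells (-0.60). Thinned to 5000 UMIs, 2.13% of AdvFB cells of this gate had a Lama5 UMI (5.79% unthinned), against 36.7% of MyoFB-Int cells (76.5% unthinned), at median depths of 24677.5 and 19459.5 UMIs per cell. As a gauge of free RNA, Egfem1, a MyoFB marker, stood in AdvFB cells at 1.24% of its level in the MyoFB cells of this library, and Lama5 at 3.51% of its own. How much of the low Lama5 count in AdvFB came from free RNA was not tested, so its fold describes the libraries as counted.

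Against MatFB-Type 2 cells of the GFP-low tdT-negative gate, 6 of 9 genes measured were called in AdvFB, beside 39.7% of all genes (median log2 ratio of the members 0.09, of all genes -0.08). Lama2 was 10.0-fold (9.61 to 10.5), Hspg2 3.04-fold (2.76 to 3.35), Lamb2 2.37-fold (2.06 to 2.74) and Nid2 1.85-fold (1.51 to 2.25) higher in AdvFB. Lamb1 was 2.73-fold (2.48 to 3.01) and Lamc1 2.11-fold (1.95 to 2.28) lower in AdvFB. Lama2 and Hspg2 were called higher in AdvFB against both types. Nid2 was too, but against MatFB-Type 2 it lost its call in Xist-only cells (log2 ratio 0.34 against 0.86). The Lama2 log2 ratio to MatFB-Type 2 was 2.45 in Xist-only cells and 4.22 in Y-only cells, against 3.32 over all. That of Lamb1 was -2.16 in Xist-only cells against -1.44. The Xist-only and Y-only AdvFB cells of the GFP-low tdT-negative gate numbered 40 and 82. Past the limit in AdvFB against MatFB-Type 2 under an alternative were Lama4 with at most 5% mitochondrial UMIs (-0.59) and in Xist-only cells (-0.79), and Lama5 in Xist-only (-0.62) and Y-only cells (-0.75). For scale, 38.0% and 39.7% of all genes were called in these comparisons.

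Between the gates, 4 of the 9 genes measured were called in AdvFB, beside 15.9% of all genes (median log2 ratio of the members 0.26, of all genes 0.04). Lama5 had 3.41 CPM in the GFP-high tdT-negative gate and 51.6 CPM (44.5 to 59.5) in the GFP-low tdT-negative gate, 15.1-fold lower (10.2 to 23.4). Lamb1 was 1.63-fold (1.47 to 1.81), Nid1 1.61-fold (1.52 to 1.71) and Lama4 1.54-fold (1.41 to 1.68) higher in the GFP-high tdT-negative gate. Lama4 was short of the limit with per-cell means (log2 ratio 0.48) and on thinned cells (0.48). The AdvFB cells of the GFP-low tdT-negative gate held more contractile transcripts: 10 smooth muscle markers summed to 147 CPM in AdvFB of the GFP-high tdT-negative gate and 3857 CPM in that of the GFP-low tdT-negative gate.

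AdvFB cells with over 500 CPM of summed Acta2, Tagln and Myh11 numbered 8 of 328 in the GFP-high tdT-negative gate and 52 of 148 in the GFP-low tdT-negative gate. Among the 52, Lama5 was 144 CPM, Lamb1 57.8 CPM, Nid1 156 CPM and Lama2 832 CPM. Among the other 96 cells of that gate, Lama5 was 4.52 CPM, Lamb1 158 CPM, Nid1 479 CPM and Lama2 2689 CPM, and Lamb2 took 32.6% of the β-chain UMIs, against 65.6% in the 52. With those cells left out of both gates, no gene was called between gates: Lama5, at 2.50 CPM in the GFP-high tdT-negative gate against 4.52 CPM in the GFP-low tdT-negative gate, averaged under the 10 CPM minimum, and Lamb1 had 197 and 158 CPM. Against the 72.0 CPM of MatFB-Type 2, Lama5 in those 96 AdvFB cells was called lower, with a log2 ratio of -3.73.

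MatFB-Im,Cuff cells showed the largest count of differences between gates, with 7 of 10 genes called in the GFP-high tdT-negative over the GFP-low tdT-negative gate, beside 26.7% of all genes (median log2 ratio of the members 0.69, of all genes 0.07). Lamc3 had 229 CPM in the GFP-high tdT-negative gate and 13.7 CPM (10.4 to 17.8) in the GFP-low tdT-negative gate, 16.6-fold higher (12.7 to 22.3). Lama2 was 3.90-fold (3.71 to 4.11), Lama4 1.84-fold (1.69 to 2.00), Hspg2 1.74-fold (1.43 to 2.12), Lamb2 1.73-fold (1.38 to 2.17) and Nid2 1.55-fold (1.04 to 2.30) higher, and Lama5 was 1.82-fold lower (1.29 to 2.63). Nid2 was short of the limit under most alternatives, with log2 ratios of 0.51 with TMM scaling and 0.37 in Y-only cells. The Lama5 log2 ratio was -0.059 in Xist-only cells and -1.95 in Y-only cells. The sex-split values here rest on few cells: 48 Xist-only and 48 Y-only cells of the GFP-high tdT-negative gate. The GFP-low tdT-negative gate had 97 and 83, and a difference between the sexes was not tested. Hspg2 lost its call on thinned cells (0.54) and Lamb2 in Y-only cells (0.57), while Lamb1 passed the limit in Y-only cells (0.70) and Lamc3 reached 5.17 there. Lamc3 took 38.7% of γ-chain UMIs in the GFP-high tdT-negative gate, against 3.93% in the GFP-low tdT-negative gate.

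The cells under this name differed between the gates: 12 alveolar fibroblast markers summed to 6683 CPM in the GFP-high tdT-negative gate against 18539 CPM in the GFP-low tdT-negative gate. A cluster found without the 10 genes, added after the data were seen, held 92 of the 110 MatFB-Im,Cuff cells of the GFP-high tdT-negative gate and 18 of the 205 of the GFP-low tdT-negative gate. In it Lamc3 was 281 CPM in the GFP-high tdT-negative gate against 151 CPM in the GFP-low tdT-negative gate, and Lama2 was 2157 and 1685 CPM. Outside it, Lamc3 was 21.6 and 0.520 CPM and Lama2 was 1648 and 415 CPM. Within the cluster only Lamc3, of the 10 genes, was called between gates, and the log2 ratios of Lama5 (0.025), Lamb2 (-0.46) and Nid2 (-0.25) had the opposite sign to those over all MatFB-Im,Cuff cells.

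**Figure D4:**
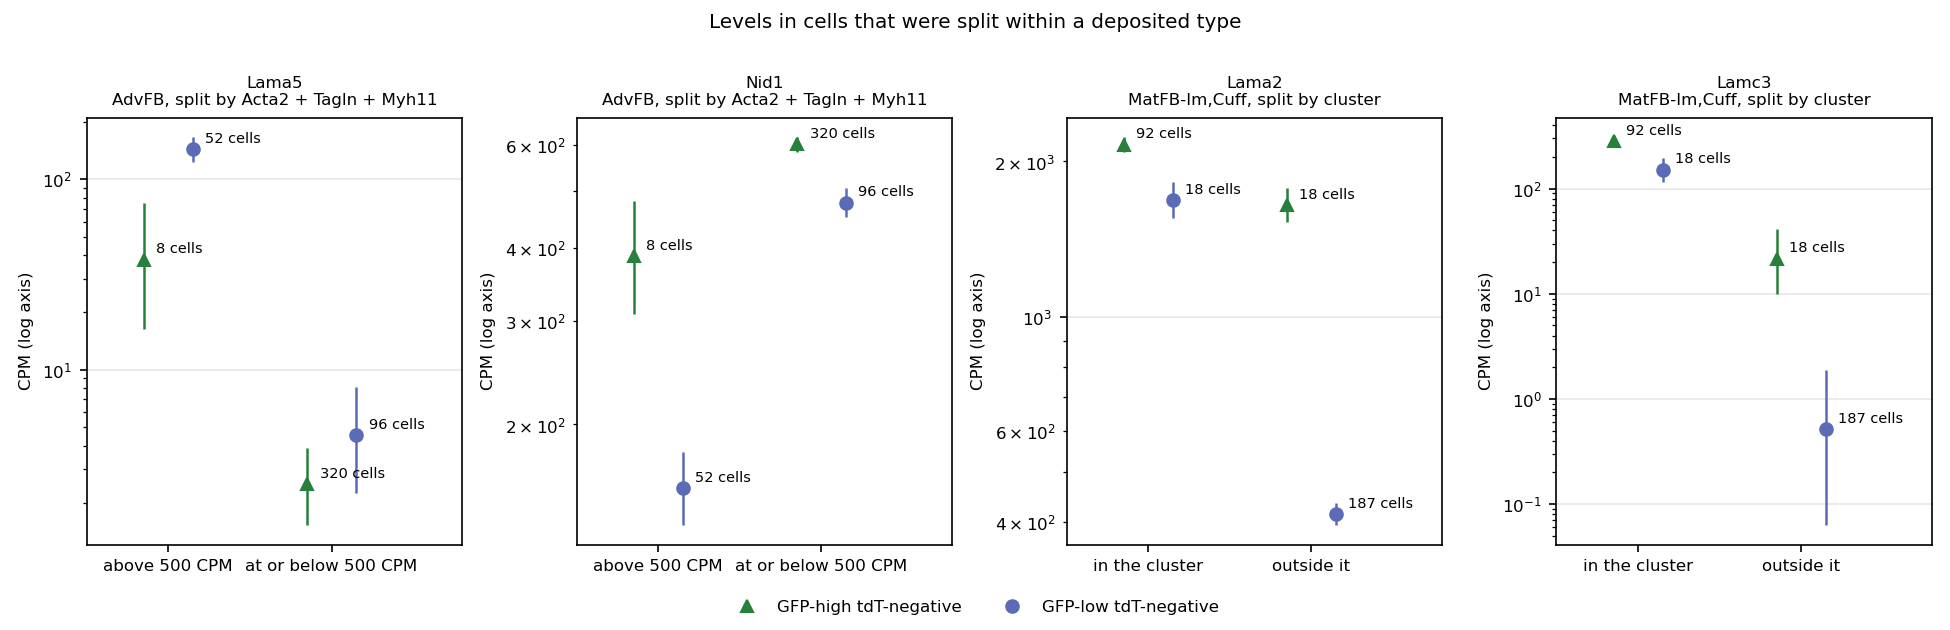
CPM (log axes, 95% Poisson intervals) of Lama5 and Nid1 in AdvFB cells above and below 500 CPM of summed Acta2, Tagln and Myh11, and of Lama2 and Lamc3 in MatFB-Im,Cuff cells inside and outside a cluster found without the 10 genes, for the 2 tdT-negative gates (GFP-high, then GFP-low), with cell counts. Lama5 is high in the 52 AdvFB cells above the limit in the GFP-low tdT-negative gate, and Lamc3 is high inside the cluster in both gates.

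In the GFP-low tdT-negative gate, MatFB-Type 2 cells were also set against MatFB-Im,Cuff cells. Here 2 of 9 genes measured were called, beside 17.8% of all genes (median log2 ratio of the members 0.20, of all genes 0.02). Lama5 had 72.0 CPM in MatFB-Type 2 and 37.0 CPM in MatFB-Im,Cuff, 1.95-fold higher (1.64 to 2.32), and Lama2 had 205 and 526 CPM, 2.57-fold lower (2.43 to 2.72). In Y-only cells the Lama2 log2 ratio was -2.02, against -1.36, and Hspg2 passed the limit in Xist-only cells (0.63). Lamc3, at 0.153 CPM in MatFB-Type 2 (fewer than 3 UMIs) and 13.7 CPM in MatFB-Im,Cuff, averaged under 10 CPM.

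Over all cells of the GFP-high tdT-negative over the GFP-low tdT-negative gate, 2 of the 10 genes were called, beside 28.1% of all genes (median log2 ratio of the members 0.12, of all genes 0.15). Lamc3 had 30.1 CPM in the GFP-high tdT-negative gate against 3.35 CPM in the GFP-low tdT-negative gate, 8.99-fold higher (7.27 to 11.2), and Hspg2 had 51.0 and 88.8 CPM, 1.74-fold lower (1.65 to 1.83). These gates hold different types, 1032 and 21 MyoFB-IMR cells and 44 and 651 MatFB-Type 2 cells, so the type makeup and the gate cannot be told apart in these sums.

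Other basement membrane genes were read beside the 10. Of other laminin chains, Lamb3, the β chain of epithelial anchoring laminin, had 34.1 CPM in MatFB-Type 1 and 35.4 CPM in MatFB-Type 2, and Lama1 had 14.2 CPM in MyoFB-IMR of the GFP-high tdT-negative gate. Of the 8 network collagens, 3 of 5 measured were called in MyoFB-Ter between the GFP-high gates, beside the 16.7% of all genes, all higher in the GFP-high tdT-high gate. Col4a5 had 69.4 CPM in the GFP-high tdT-high gate and 15.1 CPM in the GFP-high tdT-negative gate, Col4a6 had 27.4 and 2.64 CPM, and Col15a1 had 106 and 34.5 CPM. The common type IV chains did not follow: Col4a1 had 968 and 957 CPM and Col4a2 had 524 and 484 CPM in the same cells.

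Of the 20 other basement membrane proteins, 3 of 11 measured were higher and 4 lower in MyoFB-Ter of the GFP-high tdT-high gate, beside the same 16.7% of all genes called. Furthest from even were Smoc2, a matricellular protein of the SPARC family, at 17.6 CPM in the GFP-high tdT-high gate and 4.14 CPM in the GFP-high tdT-negative gate, and Frem1, of the Fraser complex, at 6.99 and 23.9 CPM. Agrn, a heparan sulfate proteoglycan like perlecan, had 50.5 CPM in the GFP-high tdT-high gate and 27.5 CPM in the GFP-high tdT-negative gate, Ntn1, a laminin-related netrin, had 260 and 129 CPM, and Egflam, a dystroglycan ligand, had 113 and 330 CPM. Ntn1 was higher in the GFP-high tdT-high gate in MyoFB-Int as well, at 163 against 75.7 CPM. Of the 17 laminin receptor genes, 2 of 11 measured were called in MyoFB-Ter, a share near the 16.7% of all genes, with Sgcd, of the sarcoglycan complex, at 841 and 355 CPM and the integrin chain gene Itga2 at 33.9 and 12.1 CPM, and none was called in MyoFB-Int (10 measured, 5.16% of all genes called) or MyoFB-IMR (12 measured, 2.87%).

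In MatFB-Im,Cuff, where 26.7% of all genes were called, 3 of 6 network collagens measured were higher and 1 lower in the GFP-high tdT-negative gate, led by Col15a1 at 98.0 CPM against 5.69 CPM in the GFP-low tdT-negative gate. Of 13 other basement membrane proteins measured, 7 were higher and 3 lower, among them Npnt, an integrin ligand, at 282 CPM in the GFP-high tdT-negative gate against 1240 CPM in the GFP-low tdT-negative gate. In AdvFB, where 15.9% of all genes were called, 8 of 14 receptor genes measured were lower in the GFP-high tdT-negative gate. Among them Dmd, which encodes dystrophin, had 93.3 CPM in the GFP-high tdT-negative gate against 811 CPM in the GFP-low tdT-negative gate. The smooth muscle marker sums given above for these cells move with these values.

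Likeness to other genes was measured as Pearson's r of log2(CPM + 1) over the 14 groups, among 9611 genes, as a description, since the groups share 3 libraries. Lama2 was most like Gm36962 (r = 0.98), a gene that lies inside Lama2 on the same strand, so their reads cannot be told apart, and then like Anpep (0.97) and Dcc (0.96). Lamb2 was most like Sox9, Ntn1 and Fstl1 (0.96 each), and Hspg2 like Adamts5 (0.97), Smpdl3a (0.96) and Arl4a (0.95). Lamc3 was most like Fzd1 and Lgr5 (0.93 each) and Kcnip1 (0.91), Lamb1 like Efcc1 and Gpm6b (0.94 each) and Runx1t1 (0.93), and Lamc1 like Asah2 and Klhdc8b (0.91 each) and Pik3r1 (0.89). For Nid1 these were Selenop, Pcolce and Mrps28 (0.96 each), and for Nid2 Camkk2 (0.91), Sash1 and Arhgap20 (0.90 each). For Lama4 they were Zfp64 (0.91), Mycbp2 and Fam199x (0.89 each), and for Lama5 Ktn1 (0.94), Sox5os4 (0.93) and Gm26632 (0.92). Lamb1 and Lamc1 had r = 0.72, the highest between members, and Lama2 and Lama5 had r = -0.71, the lowest.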

How the data were processed

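Single-cell RNA of 3 sorted gates was read from the authors' deposited filtered count matrices, whole-number UMI counts per gene and cell that were not normalized. Per the submitters' processing notes, reads were processed with Cell Ranger 7.0.0 on the build mm10; the sources used here do not say whether intronic reads were counted. The deposited cell table gives each kept cell's type and its percent of mitochondrial UMIs; all 6142 listed cells were used, no further cell filter was set and no doublet caller was run. Gene positions were read from GENCODE M21. UMI counts were summed per gate and type, scaled to a total of 1000000, and compared as ratios of (CPM + 1) with a minimum mean of 10 CPM and a limit of 1.5-fold; intervals are exact at 95% and the floor is 3 counts. UMIs are molecules, yet intervals cover counting error only. With 1 library per gate, no test was run. Cells were thinned to 5000 UMIs for shares of cells. Clusters, used to split types, came from 2000 genes without the members, 30 components, 15 neighbours and resolution 1.0 (scanpy 1.11.5). The ratio and interval steps were tested on simulated data. Alternatives used edgeR 4.0.16 TMM factors and DESeq2 1.42.0 size factors on the counts, as scalings only. Tables were handled in pandas 2.3.3 (Python 3.11.15), intervals came from scipy 1.17.1 with numpy 2.4.6, and plots from matplotlib 3.10.9. The members and gene lists were chosen with earlier results of these data known. All 10 members are named; among the companion lists, the rule names the highest level or the largest ratio either way, the other companions were chosen after their values were seen, and for likeness the 3 genes with the highest r per member are named, among genes with at least 20 CPM in 1 group. Values of some companion genes that this rule would name are not reported here.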

Additional observations from a re-analysis of the deposited data

How the results depend on the processing

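No paired analysis was possible because each gate has 1 library. With 1 library a gate, no replicate could be left out, and depth limits the low genes: a floor of 3 counts over a whole library stood between 0.0437 and 0.113 CPM. Counts of called members moved by over 1.5 times in 36 of 197 recomputed counts, and the causes were not tested. For the GFP-high tdT-high over the GFP-high tdT-negative gate, the count over all cells was 1 with a minimum of 50 CPM or a 2-fold limit, against 2. In MyoFB-IMR it was 0 with per-cell means, 50 CPM, 2-fold or thinned cells and 2 in cells with Xist and no Y-linked UMIs, against 1. In MyoFB-Int it was 1 with a pseudocount of 5, 2-fold or Xist-only cells and 0 with 50 CPM, against 3. In MyoFB-Ter it was 5 with no minimum or without the cluster that held 143 of the 190 GFP-high tdT-high cells, against 3. For the GFP-high tdT-negative over the GFP-low tdT-negative gate, the count over all cells was 1 with 50 CPM or 2-fold and 4 in Xist-only cells, against 2. In AdvFB it was 1 with 2-fold and 0 without the contractile cells or in the largest AdvFB cluster only, against 4; in MatFB-Im,Cuff it was 2 with 2-fold and 1 in the cluster alone, against 7. In that cluster the log2 ratios of Lama5 (0.025), Lamb2 (-0.46) and Nid2 (-0.25) changed sign. For MyoFB-Int over MyoFB-IMR, the count was 1 with 50 CPM or 2-fold against 3 in the GFP-high tdT-negative gate, and 3 with TMM or DESeq2 scaling, or in Xist-only cells and 2 with 50 CPM or 2-fold against 5 in the GFP-high tdT-high gate. For MyoFB-Ter over MyoFB-Int it was 2 with 50 CPM, in Xist-only or Y-only cells or without cells lacking Pdgfra and 1 with 2-fold against 4 in the GFP-high tdT-negative gate, and 5 with no minimum against 3 in the GFP-high tdT-high gate. For MatFB-Type 2 over MatFB-Im,Cuff it was 1 with 2-fold and 4 in Xist-only cells, against 2. The counts for AdvFB over MyoFB-Int and over MatFB-Type 2 stayed within 1.5 times under every alternative run.

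Scaling moved the share of higher among all called genes by over 10 percentage points in 4 comparisons. For MatFB-Im,Cuff between gates, the 1455 higher and 996 lower calls were 1190 and 1257 with TMM. For AdvFB over MyoFB-Int, 1308 and 2188 were 1688 and 1430, with the median of all genes at -0.054 against -0.24. For MyoFB-Int over MyoFB-IMR, 489 and 583 were 670 and 402 in the GFP-high tdT-high gate (median 0.070 against -0.051), and 353 and 368 were 465 and 276 in the GFP-high tdT-negative gate. Smaller moves included 1558 and 1094 over all cells of the tdT-negative gates, which were 1273 and 1272, and 643 and 891 in MyoFB-Ter between the GFP-high gates, which were 714 and 735.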

Other observations

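A cluster of 16 AdvFB cells of the GFP-high tdT-negative gate, found without the 10 genes and added after the data were seen, had 4740 CPM of Lama2, 683 CPM of Lamb1, 718 CPM of Lamc1, 1188 CPM of Nid1 and 334 CPM of Hspg2, each above every one of the 14 groups. Lamb2 took 3.83% of its β-chain UMIs.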
